A study of Mus musculus with 4 samples.

Results

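The Ttyh and Ddah families were followed in the E14.5 cortex after loss of *Qk*, which encodes the RNA-binding protein Quaking. The 5 members, *Ttyh1*, *Ttyh2*, *Ttyh3*, *Ddah1* and *Ddah2*, were taken by gene symbol from the 23038 genes of the deposited expression tables. Their 12 alternative splicing events were taken by gene identifier from 38240 events. *Ttyh1* and *Ddah1* entered because their levels were known to fall in these same libraries, so their gene-level values are given as a description without a test. *Ttyh2*, *Ttyh3* and *Ddah2* entered as their paralogs. The isoform ratios played no part in the choice.

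The samples were 2 control cortices, with both *Qk* alleles floxed (*Qk* fl/fl) and no Cre, labelled wild type in the deposited records, and 2 *Qk* cKO cortices, which carried Nestin-Cre on the same floxed background. The embryos were E14.5 littermates. Cre from the *Nestin* promoter acts in neural progenitors and the cells derived from them, so cells of other origin in the same tissue, such as microglia and blood, are not its targets. PolyA-selected mRNA was sequenced, and each sample held between 37942046 and 42994832 tags assigned to genes, a tag being the unit that the authors' quantification counts.

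The Tweety homologs (Ttyh) are membrane proteins with several transmembrane segments that have been linked to chloride conductance and cell volume. *Ttyh1* is known as a gene of neural stem cells, radial glia and astrocytes. The dimethylarginine dimethylaminohydrolases (Ddah) break down asymmetric dimethylarginine, a methylated amino acid that is released from proteins and inhibits nitric oxide synthases.

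The sequences at the end of *Ttyh1* are shown first, because the splicing difference described further on lies there. Proximal and distal 3′ splice sites compete for the same upstream exon. The proximal site joins that exon to position 4133866 of chromosome 7, and the distal site joins it to position 4134351, 485 nt downstream (GRCm38, the same build as mm10, plus strand, GENCODE M21). Of the 18 annotated *Ttyh1* transcripts, 5 used the proximal site and 3 the distal one. In the 450-residue reading frame the stop codon (4133699 to 4133701) lies in the upstream exon, 37 nt before its end. Both sites then open the last exon inside the 3′ UTR, and the segment between them is 3′ UTR sequence. In the following lines the capitals mark the hexamer ACTAAC, the core of the motif that Quaking is known to bind, the AG directly before the distal site, and the stop codon.
ACTAAC copy 1, chr7:4133889-4133906: ggccccACTAACctgacc
ACTAAC copy 2, chr7:4133918-4133935: ctgaccACTAACactgct
ACTAAC copy 3, chr7:4134185-4134202: tatggcACTAACttggaa
end of the segment before the distal site, chr7:4134321-4134350: tggttgaaaggcaactctcctcttgtccAG
end of the reading frame, chr7:4133687-4133716: cagtcttccatcTGAgcctcccctccagtc

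The 3 copies began at bases 30, 59 and 326 of the segment and ended 450, 421 and 154 nt before the distal site. The reverse complement occurred 0 times in the segment, and the copies did not overlap each other. Among the first 485 nt of the last exons, where at least that long, of 16867 protein-coding genes, 5.15% held at least 1 copy on the transcribed strand, 38 held at least 2, and 1 held 3, which was *Ttyh1* itself. The motif was searched after the splicing difference was known, and a match is a description of the letters, not of binding. Over the whole 3′ UTR, *Ttyh1* held 3 copies in 2880 nt and *Ttyh3* 2 in 2879 nt. The 3′ UTR of *Ddah1* held 2 copies in 2719 nt, that of *Ttyh2* 1 in 1774 nt, and that of *Ddah2* 0 in 184 nt. Of 3′ UTRs at least as long and read to the same length, 36.2% held at least 1 copy at the *Ttyh1* length, 35.1% at the *Ddah1* length and 24.2% at the *Ttyh2* length. At least 3 copies were held by 1.38% at the *Ttyh1* length. At least 2 were held by 8.27% at the *Ttyh3* length and 7.34% at the *Ddah1* length.

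Before the members, the deletion and the makeup of the samples were examined. The tags on the junction of *Qk* exons 2 and 3 were 635 and 565 in the controls and 63 and 68 in *Qk* cKO. Per 100 tags on the junction of exons 3 and 4 this was 120 ± 12.7 (SD, n = 2) in controls and 7.60 ± 0.828 in *Qk* cKO, so few *Qk* transcripts kept the deleted exon. The whole gene had 8647 and 8135 tags in controls and 13794 and 13857 in *Qk* cKO, a log2 fold change of 0.65 (SE 0.065). Of 18834 genes with at least 1 tag, edgeR's quasi-likelihood test called 110 (0.584%) at p below 0.01 and FDR below 0.1, and 71 (0.377%) of them were lower in *Qk* cKO. In bulk tissue, fewer cells of a type and less RNA per cell cannot be told apart.

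The cell type markers that were called belonged to the radial glia, glial and ventral diencephalon lists. Of 9 radial glia markers, 2 were called lower, *Fabp7*, a fatty acid binding protein (log2 fold change -0.45), and *Slc1a3*, a glutamate transporter (-0.23). DESeq2 and edgeR's exact test each called 1 of the 9, *Fabp7*. The summed level of that list was 1530 to 1651 RPKM in controls and 1286 to 1350 RPKM in *Qk* cKO. Most of this difference was *Fabp7*. The other 8 genes summed to 662 and 629 RPKM in controls and 647 and 620 in *Qk* cKO, which overlapped. *Vim* alone made up 444 to 481 RPKM of that sum, so it says little about the other genes. *Sox2* was at 23.5 and 26.3 RPKM in controls and 19.8 and 20.4 in *Qk* cKO (log2 fold change -0.29), and was not called. *Nes* (0.040) and *Vim* (-0.012) were not called either. Of the 9 log2 fold changes, 5 lay below 0. By edgeR's quasi-likelihood test 4 of the 9 had an unadjusted p below 0.05, and 3 of these were lower and the other higher. Of 10 genes typical of glial progenitors and astrocytes, 5 were called lower (*Aldh1l1*, *Ednrb*, *Mlc1*, *Tnc* and *Vcam1*, with log2 fold changes of -0.75 to -0.37). *Ptprz1* (-0.084), *Aldoc* (-0.0030) and *Gja1* (0.24) were not called, and 2 of the 10 genes stayed below 1 RPKM in every sample. Of the 10 log2 fold changes, 8 lay below 0. The summed level of the list was 228 to 239 RPKM against 200 to 217 RPKM. Of 7 ventral diencephalon markers, 5 were called lower by this test (*Nkx2-2*, *Nr5a1*, *Pomc*, *Six6* and *Sox14*, with log2 fold changes of -5.06 to -2.34). The exact test called 5 and DESeq2 0. All 7 markers summed to 8.88 and 14 RPKM in controls against 6.58 and 6.85 RPKM in *Qk* cKO. *Nkx2-1*, which was not called, made up 6.79 and 7.26 RPKM of the control sums and 5.94 and 6.31 RPKM of those in *Qk* cKO. Of the 7 markers, 5 stayed below 1 RPKM in every sample. The other 9 marker lists, for intermediate progenitors, excitatory neurons, interneurons, the oligodendrocyte lineage, microglia, endothelium, mural cells, meninges and blood, held 0 called genes of 48 by edgeR's quasi-likelihood test, by its exact test or by DESeq2. Of these 48 genes, 12 had an unadjusted p below 0.05 and 3 of the 12 were lower. The share of all tested genes below that p is not given. This count, that of the radial glia list and those for the lists further below therefore show no shift by themselves. The summed meninges markers were 155 RPKM in *Qk* cKO replicate 2 and 116 to 127 RPKM in the other samples. *Neurod6*, *Tbr1* and *Eomes*, which mark the excitatory lineage of the cortex, stood at 138 to 167, 40.8 to 52.0 and 43.8 to 47.8 RPKM. These lists were chosen with earlier results of these data known, and the part of cell makeup in the results below was not tested.

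The level of each member was compared per length of exon, as RPKM. *Ddah2* stood highest, followed by *Ttyh3*, *Ttyh1*, *Ddah1* and *Ttyh2*, and this order held within each of the 4 samples. *Ddah2* was 2.18 to 2.49 times as high as *Ttyh3*, and *Ttyh3* was 2.15 to 2.71 times as high as *Ttyh1*. *Ttyh1* and *Ddah1* were neighbours with a ratio of 1.30 to 1.39 within samples. Their ranges over all samples overlapped, since the lowest *Ttyh1* value (31.6 RPKM) lay below the highest *Ddah1* value (33.5 RPKM). *Ddah1* was 2.72 to 3.52 times as high as *Ttyh2*.

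**Figure D1:**
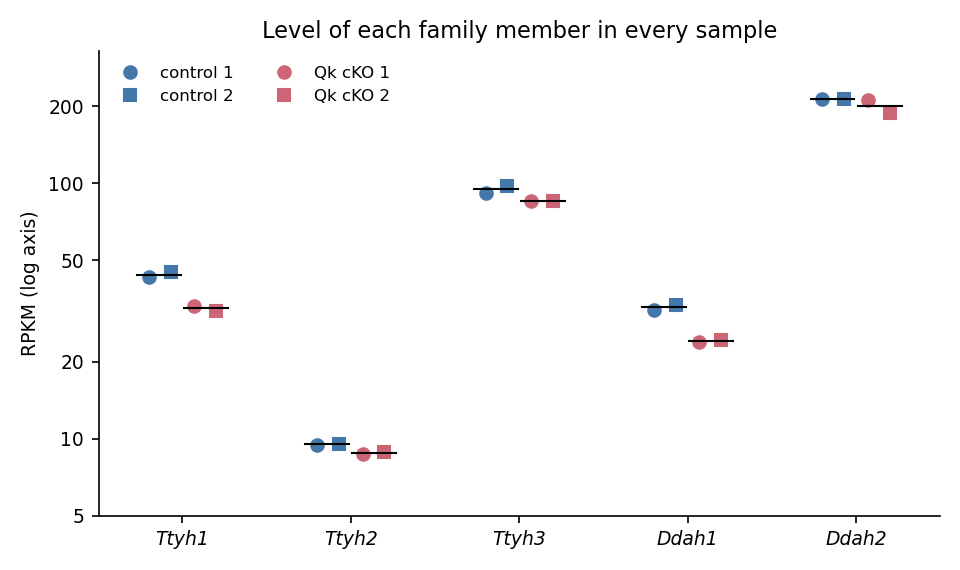
RPKM of the 5 genes on a log axis, with 1 point per sample (blue, control; red, *Qk* cKO; circles, replicate 1; squares, replicate 2) and short lines at the group means. *Ttyh1* and *Ddah1* show a step down between the groups that is wider than the gap between replicates, and the order of the genes is the same in every sample.

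*Ttyh1* (Entrez 57776, chr7:4119408-4136708, plus strand) had 7474 and 7205 tags in the controls and 6019 and 5473 in *Qk* cKO, or 42.8, 45.0, 33.2 and 31.6 RPKM. Both *Qk* cKO samples lay below both controls, and replicates within a group differed by a ratio of 1.05. The mean fell from 43.9 ± 1.59 RPKM (SD, n = 2) to 32.4 ± 1.13 RPKM, which was 73.8% of control. The log2 fold change from the fit over all genes was -0.42 (SE 0.054, 95% interval -0.54 to -0.31), given here as a description because the gene was chosen for it.

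*Ddah1* (Entrez 69219, chr3:145758675-145894277, plus strand) had 4970 and 4758 tags in the controls and 3839 and 3744 in *Qk* cKO. The RPKM values were 32.0 and 33.5 in controls against 23.8 and 24.3. The groups did not overlap, and the mean fell from 32.7 ± 1.02 (SD, n = 2) to 24.1 ± 0.352 RPKM, or 73.5% of control. The log2 fold change was -0.43 (SE 0.057, 95% interval -0.55 to -0.31), also as a description. The falls of *Ttyh1* and *Ddah1* were alike in size. Both genes were chosen for a fall in these libraries, so the like size is not a separate result.

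The paralogs were not chosen for a change, and none of the 3 was called. *Ttyh3* (Entrez 78339, chr5:140620578-140649031, minus strand) had 17744 and 17242 tags in controls and 17056 and 16367 in *Qk* cKO, or 92.0, 97.6, 85.2 and 85.6 RPKM. Both *Qk* cKO values lay below both controls. The log2 fold change was -0.14 (SE 0.074, 95% interval -0.29 to 0.017, edgeR quasi-likelihood adjusted p = 0.646).

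*Ttyh2* (Entrez 117160, chr11:114675431-114720977, plus strand) had the lowest level, with 1359 and 1248 tags in controls and 1300 and 1265 in *Qk* cKO. These were 9.49, 9.52, 8.75 and 8.91 RPKM, again without overlap. Its log2 fold change was -0.093 (SE 0.107, 95% interval -0.32 to 0.13, edgeR quasi-likelihood adjusted p = 0.872). The interval is wide enough to hold both no change and a fall of 0.32 on the log2 scale.

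*Ddah2* (Entrez 51793, chr17:35059035-35062095, plus strand) had 12000 and 10908 tags in controls and 12329 and 10441 in *Qk* cKO, or 215, 213, 212 and 188 RPKM. The second *Qk* cKO sample stood apart from the other 3. The log2 fold change was -0.080 (SE 0.072, 95% interval -0.23 to 0.070, edgeR quasi-likelihood adjusted p = 0.831), and it was 0.014 without that sample. After TMM scaling the groups of *Ddah2* overlapped (285 and 289 CPM against 254 and 290, where CPM is the number of tags per 1000000 tags of the scaled library). Among all genes tested, 20.6% had both *Qk* cKO values of RPKM below both controls, so the lack of overlap in *Ttyh2* and *Ttyh3* is a common pattern here.

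The weight of each gene within its family is given as its share of the summed RPKM. These shares contain the values that chose *Ttyh1* and *Ddah1*, so they are a description and were not tested. *Ttyh1* held 29.7% and 29.6% of the summed Ttyh RPKM in controls and 26.1% and 25.1% in *Qk* cKO. *Ttyh3* held 63.8% and 64.1% against 67.0% and 67.9%, and *Ttyh2* stayed between 6.26% and 7.07% in all samples. The summed Ttyh level was 144 and 152 RPKM in controls and 127 and 126 RPKM in *Qk* cKO. *Ddah1* held 13.0% and 13.6% of the summed Ddah RPKM in controls and 10.1% and 11.4% in *Qk* cKO, so *Ddah2* made up most of the family in every sample.

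The same comparison on the log2 scale sets each gene against its own paralog in the same library, where scaling between libraries cancels. The level of *Ttyh1* minus that of *Ttyh3* was -1.10 and -1.12 in controls and -1.36 and -1.44 in *Qk* cKO, a mean difference of -0.29. *Ddah1* minus *Ddah2* was -2.74 and -2.67 in controls and -3.16 and -2.95 in *Qk* cKO, a mean difference of -0.35. Both shifts were wider than the gaps between replicates, of at most 0.078 for the first and 0.20 for the second, and they contain the values that chose *Ttyh1* and *Ddah1*. *Ttyh3* minus *Ttyh2*, which holds no chosen gene, was 3.28 and 3.36 in controls and 3.28 and 3.26 in *Qk* cKO, and the groups overlapped. With 2 samples against 2, an exact permutation test cannot go below p = 0.333.

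**Figure D2:**
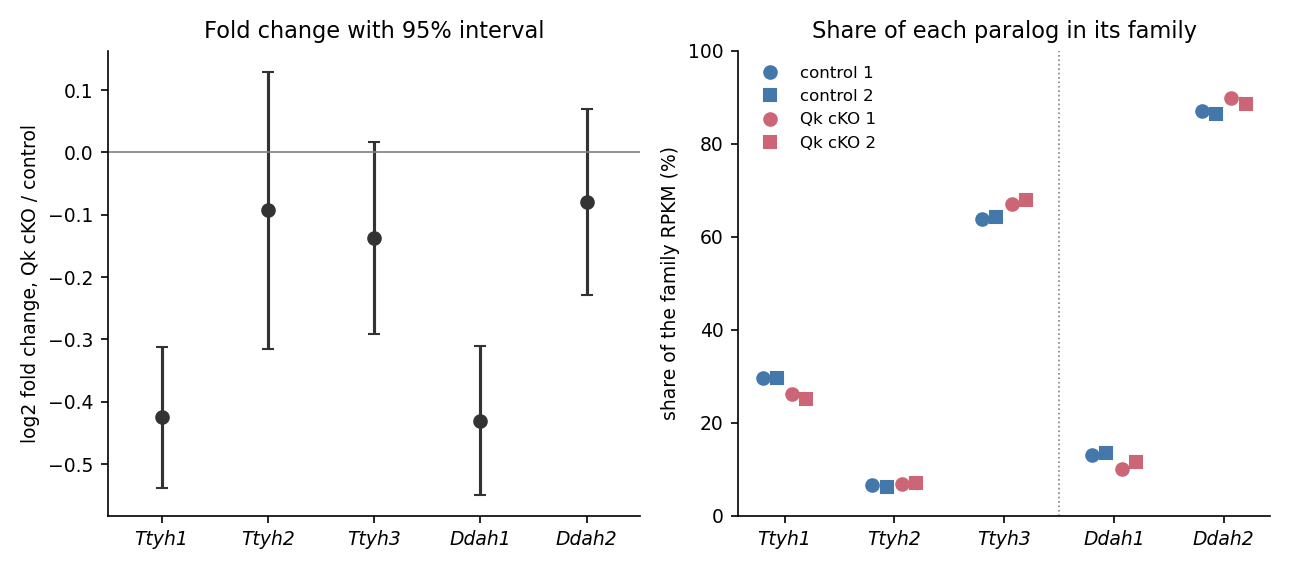
Left, log2 fold change of *Qk* cKO over control for each gene, with bars for the 95% interval of the edgeR fit; *Ttyh1* (-0.42) and *Ddah1* (-0.43) were chosen for their fall, and the intervals of the other 3 genes include 0. Right, share of each gene in the summed RPKM of its family in percent, with 1 point per sample (blue, control; red, *Qk* cKO), the Ttyh and Ddah families parted by the dotted line.

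The paralogs differ widely in sequence, which bears on how their reads are counted. Coding sequences of *Ttyh1* and *Ttyh2* were identical at 65.1% of aligned bases, those of *Ttyh1* and *Ttyh3* at 63.9%, and those of *Ddah1* and *Ddah2* at 60.7%. The longest run of identical bases between any of these transcripts was 25 nt. *Ttyh1* shares exon bases with genes on the opposite strand, 180 nt with *9430041J12Rik* and 244 nt with *D030047H15Rik*. The kit does not mark strand, so reads there cannot be told apart. These antisense genes stood at 1.74 to 2.52 RPKM and 3.09 to 3.60 RPKM.

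Alternative splicing was then compared, a measure that the choice of the members did not use, although they were chosen with earlier results from the same libraries known. Of the 12 events, 7 had enough tags for the test (at least 20 junction tags in each group summed over isoforms, and for each isoform summed over groups), in *Ttyh1*, *Ttyh3* and *Ddah2*. Fisher's exact test on tags called 1 of the 7, and it called 862 (7.5%) of all 11500 events tested. The test treats tags as independent. An edgeR test of whether genotype and isoform interact, which takes the spread between samples into account, also called 1 of the 7 and 64 (0.557%) of all events.

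The called event was the alternative 3′ splice site of *Ttyh1*. The junction to the proximal site had 236 and 252 tags in controls and 272 and 280 in *Qk* cKO. The junction to the distal site had 99.6 and 90 tags in controls and 6 and 0 in *Qk* cKO. The distal site thus took 29.6% (95% Wilson interval 25.0 to 34.7%) and 26.3% (21.9 to 31.2%) of the junction tags in controls. In *Qk* cKO it took 2.16% (0.993 to 4.63%) in replicate 1 and 0 of 280 tags in replicate 2, which allows a share of up to 1.07%.

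Use of the distal site was almost lost in *Qk* cKO. Summed over samples, the distal share was 28.0% in controls and 1.08% in *Qk* cKO, and the proximal inclusion differed by -0.27 (control minus *Qk* cKO). The adjusted p was 4.93e-43 by Fisher's exact test and 0.0166 by the edgeR interaction test. Both tests used isoform tags, which add the tags on the 485 nt segment to the proximal isoform. From isoform tags the difference was -0.10. By p this event ranked 1 among the 2648 alternative 3′ splice sites tested with Fisher's exact test and 2 with the edgeR interaction test. Fisher's exact test called 208 (7.85%) and the interaction test 4 (0.151%) of those 2648 sites. By the size of the difference it ranked 8 among the 208 called.

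Scaled to library size, the 2 sites behaved differently. The distal junction fell from 2.38 ± 0.032 (SD, n = 2) to 0.071 ± 0.0998 CPM, a difference of -2.31. The proximal junction was 6.15 ± 0.633 against 6.60 ± 0.286 CPM, with overlapping groups and a difference of 0.46 CPM. Both junctions summed were 8.10 and 8.95 CPM in controls and 6.54 and 6.80 in *Qk* cKO, or 78.3% of control, a difference of -1.85 CPM. At this exon end the fall of *Ttyh1* lay in the distal junction, while the values of the proximal one overlapped. The sums belong to the gene-level fall for which *Ttyh1* was chosen and are given as values.

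The body of the segment between the sites, which the proximal isoform keeps, had 583 and 552 tags in controls and 588 and 474 in *Qk* cKO, without the tags of the proximal junction. As CPM these were 14.05 and 14.44 against 13.83 and 11.52, or 89.0% of control. The groups did not overlap, but the first *Qk* cKO sample lay close to the controls and the gap between the *Qk* cKO samples was wider than that between the groups. The whole gene stood at 73.8% of its control RPKM. The RPKM divides all tags by a single exon length of 4216 nt whichever isoform was made. How far the isoform shift enters the gene level was not tested.

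**Figure D3:**
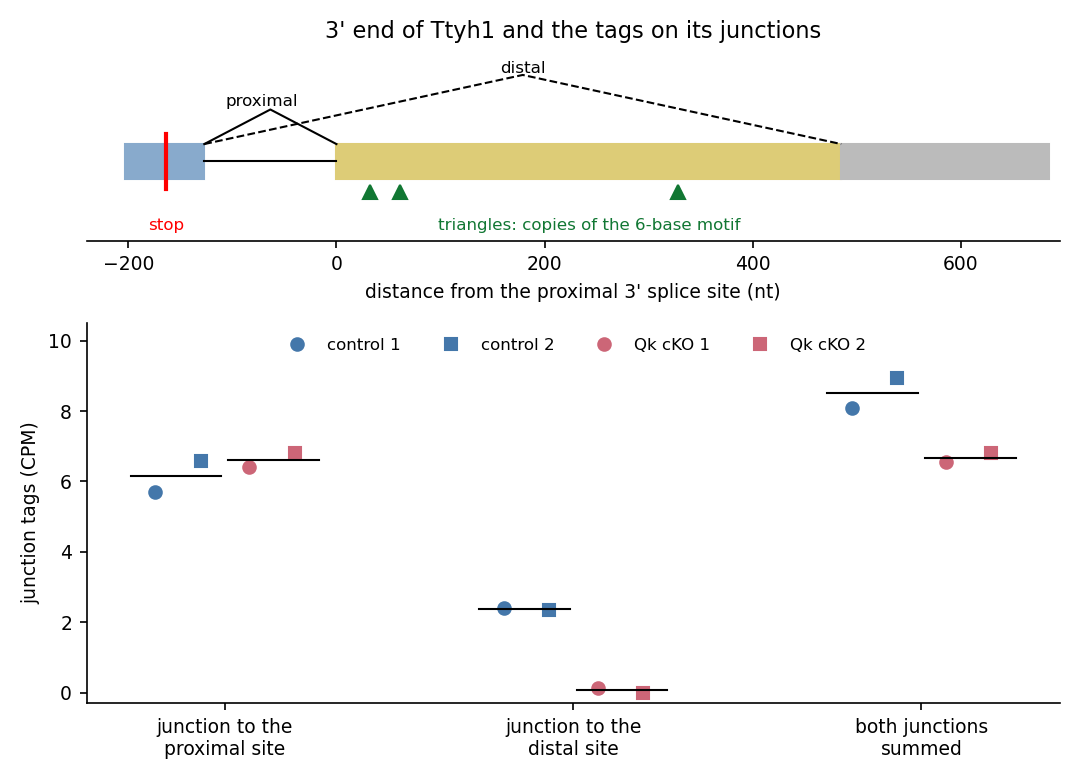
Top, the 3′ end of *Ttyh1* in nt from the proximal 3′ splice site: the upstream exon (blue, stop codon in red), the 485 nt segment (yellow), the start of the exon after the distal site (grey), and triangles at the 3 motif copies. Bottom, CPM of the junctions for each sample (blue, control; red, *Qk* cKO; lines, group means); the distal junction drops from about 2.4 to near 0 and the proximal one overlaps between groups.

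An exon further upstream in *Ttyh1*, directly before the exon that holds the stop codon, was tested too. It is a cassette exon of 46 nt in coding sequence, shown here because its skipping changes the reading frame, so that the stop moves from the exon before the alternative sites to the last exon (460 residues in place of 450).
*Ttyh1* cassette exon, chr7:4133357-4133402, plus strand: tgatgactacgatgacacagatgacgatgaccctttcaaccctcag
Junctions that skip it had 13.0 and 9.94 tags in controls and 2.80 and 9.04 in *Qk* cKO. Inclusion was 0.965 and 0.976 against 0.992 and 0.973, and the groups overlapped. The difference was -0.012, with an adjusted p of 0.589 by Fisher's exact test and 0.769 by the edgeR interaction test. The introns on either side, of 139 and 260 nt, held 0 copies of ACTAAC on the transcribed strand. Only 5.15% of the 485 nt last-exon regions above held a copy, so a count of 0 in such short introns says little. The intron of 127 nt before the proximal site was not searched. The junctions into and out of the exon stood at 82.8% and 82.7% of control as CPM. The frame without this exon reads 36 nt past the proximal site, so in that minor form the proximal site lies in coding sequence.

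Further events were tested in *Ttyh3* and *Ddah2*, and none was called. A cassette exon of 76 nt in *Ttyh3* was included at 0.973 and 0.960 in controls and 0.959 and 0.953 in *Qk* cKO (difference 0.010, adjusted p = 0.620 by Fisher's exact test). The groups just failed to overlap, as they did in 37.9% of all events tested. A neighbouring exon of 101 nt was nearly always skipped, with an inclusion of 0.032 and 0.027 against 0.026 and 0.043. A tandem event joins both exons and uses the same skipping tags as the first, so these results are not independent. Its inclusion was 0.937 and 0.906 in controls and 0.909 and 0.902 in *Qk* cKO.

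*Ddah2* has an alternative 3′ splice site with a difference of 49 nt and an alternative 5′ splice site with one of 26 nt, neither a multiple of 3. At the 5′ site, the main isoform took 0.952 and 0.959 of the junction tags in controls and 0.961 and 0.954 in *Qk* cKO. Its shorter exon belongs to an annotated protein of 244 in place of 285 residues. At the 3′ site the values were 0.968 and 0.989 against 0.980 and 0.972. Over the 6 events that were not called, the difference of inclusion was at most 0.016 in size and the adjusted p was at least 0.578 by Fisher's exact test and 0.744 by the edgeR interaction test.

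**Figure D4:**
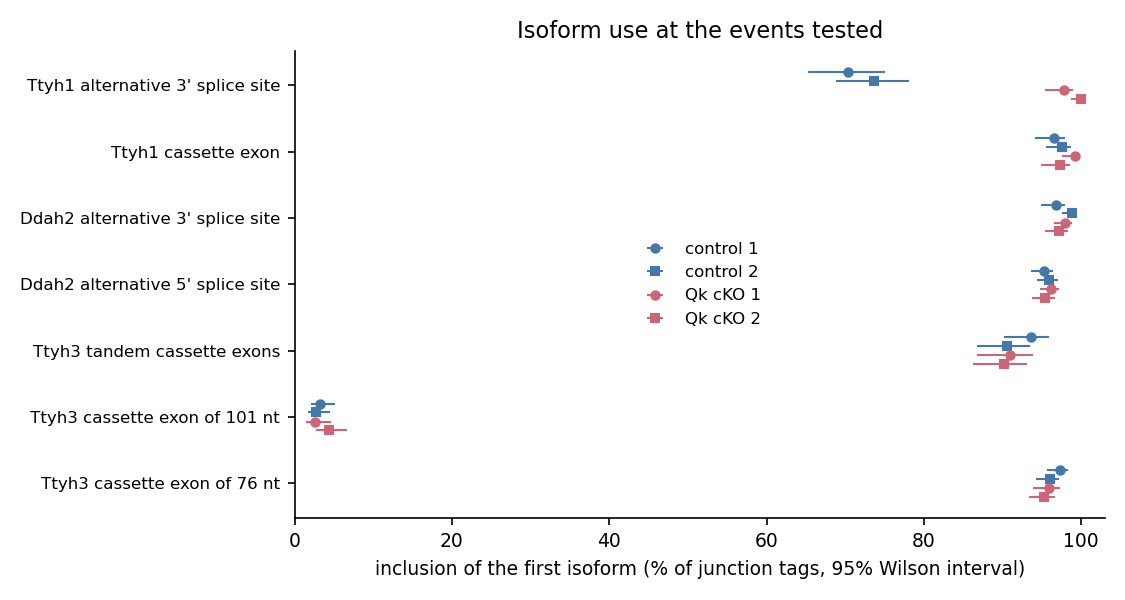
Inclusion of the first isoform in percent of junction tags at the 7 events tested, with 1 point per sample (blue, control; red, *Qk* cKO) and bars for the 95% Wilson interval, which covers counting error only. The 4 samples lie close together at each event except the alternative 3′ splice site of *Ttyh1*, where both *Qk* cKO samples lie to the right of both controls and the intervals of the groups do not meet.

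The 5 remaining events had too few tags for a test. In *Ddah1*, exons 2, 3 and 4 (100, 74 and 120 nt) form a tandem cassette, and its skipping junction had 0 tags in all 4 samples. No isoform change was therefore detectable at this event, the only one of *Ddah1* here. Isoform differences elsewhere in the gene were not measured. The tags on its inclusion junctions are given instead. The junction of exons 1 and 2 had 131 and 117 tags in controls and 102 and 86 in *Qk* cKO. That of exons 4 and 5 had 345 and 305 against 275 and 268 tags. Scaled as CPM, the 4 junctions stood between 72.2% and 79.7% of control, each without overlap, so the lower level ran along the 4 junctions from exon 1 to exon 5. Their sum was 20.2 ± 0.230 (SD, n = 2) in controls and 15.7 ± 0.471 CPM in *Qk* cKO. As part of the gene-level fall, these values are a description.

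**Figure D5:**
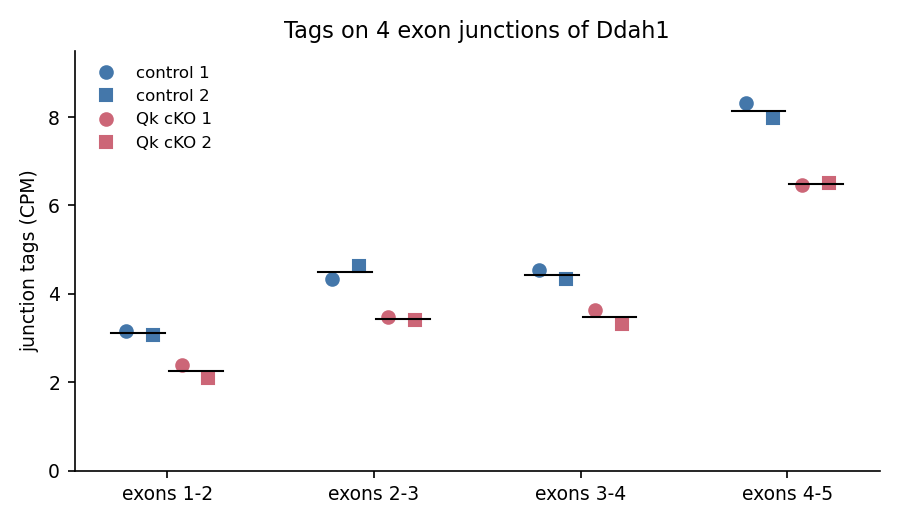
CPM on 4 exon junctions of *Ddah1* in each sample (blue, control; red, *Qk* cKO; lines, group means), with an axis from 0. Both *Qk* cKO samples lie below both controls at each junction.

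A cassette exon of 186 nt in *Ttyh2* likewise had 0 skipping tags in every sample, with 51 and 48 tags on its entry junction in controls and 47 and 52 in *Qk* cKO. The last 3 events were comparisons among the alternative 5′ splice sites of 1 exon of *Ttyh1*, the outer ones 43 nt apart. The exon reaching to the downstream site had 61.0 and 89.0 junction tags in controls and 61.1 and 54.3 in *Qk* cKO, and the other sites had at most 0.880 tags in any sample.

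The genes whose profile over the 4 samples was most like that of *Ttyh1* were *Ino80b*, *Fau*, *Bmyc*, *Sssca1* and *Fhl1*. They were chosen among 9058 genes with a mean of at least 5 RPKM by the Euclidean distance between centred log2 CPM, which was 0.046 to 0.065. For *Ddah1* they were *Tacc1*, *Bmyc*, *Sssca1*, *Vps37d* and *Fhl1*, at distances of 0.043 to 0.072. The lists shared 3 of 5 genes, and *Ttyh1* and *Ddah1* were 0.072 apart from each other. The named genes had log2 fold changes of -0.47 to -0.38, so over 4 samples in 2 groups the measure found genes with a fall of about the same size.

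The other genes of the pathways were read from lists. In the chloride and volume list, 1 of the 38 genes tested was called lower and 0 higher, against 0.377% of all genes called lower. Of the 6 genes with an unadjusted p below 0.05, 1 was lower. This was *Mlc1*, a membrane protein of astrocytes and radial glia known for its part in volume regulation, which is also in the glial marker list. Its RPKM was 13.7 and 14.2 in controls and 8.29 and 8.85 in *Qk* cKO (log2 fold change -0.69, SE 0.11, edgeR quasi-likelihood adjusted p = 0.0056). The highest levels of that list were those of *Clic1* and *Clic4*, intracellular chloride channel proteins, and of the exchanger *Clcn4-2*, with log2 fold changes of 0.13, 0.18 and 0.11, none called. *Ano1*, a calcium-activated chloride channel, had a log2 fold change of 0.26 and was not called. The median over the list was 0.012, beside -0.0025 over all genes tested.

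In the nitric oxide and methylarginine list, 0 of 26 genes were called by edgeR's quasi-likelihood test, its exact test or DESeq2, and 2 had an unadjusted p below 0.05, 1 lower and 1 higher. *Prmt1*, which makes most of the asymmetric dimethylarginine of proteins, stood at 343 to 373 RPKM in the 4 samples. *Prmt5* and *Prmt2*, further arginine methyltransferases, stood at 89.5 to 96.9 and 69.7 to 87.8 RPKM. *Pde5a*, which degrades cyclic GMP, was at 3.21 and 3.67 RPKM in controls and 4.20 and 4.31 in *Qk* cKO (log2 fold change 0.32, edgeR quasi-likelihood adjusted p = 0.319). *Nos3*, the endothelial nitric oxide synthase, was at 4.57 and 4.91 against 4.16 and 3.83 RPKM (log2 fold change -0.23, edgeR quasi-likelihood adjusted p = 0.598). The median of the list was 0.0043.

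A Notch and γ-secretase list was added because Notch signalling keeps radial glia as progenitors. It held 0 called genes of 32 by the same 3 tests, and 4 had an unadjusted p below 0.05, all lower. Without the share of all genes below that p, these 4 are not read as a shift of the list. *Dll3*, a Notch ligand, had a log2 fold change of -0.41 (edgeR quasi-likelihood adjusted p = 0.214), and *Nrarp*, a target and inhibitor of Notch, one of -0.32 (adjusted p = 0.320 by the same test). *Ncstn*, a γ-secretase subunit, *Rer1*, which acts in its assembly, and *Mfng*, which glycosylates Notch, had the highest levels, with log2 fold changes of -0.011, 0.061 and -0.12. The median was -0.069, and 23 of the 32 values lay below 0, beside 50.5% of all genes.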

How the data were processed

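OLego (alignment to mm10 with known exon junctions) and Quantas (quantification) were run by the authors before deposit. The deposited tables give, per gene, an estimated count of tags, not always a whole number, and the RPKM that the authors derived from it by exon length and library total. Per splicing event the authors deposited an estimated count of tags for each isoform and junction. Reads that fit several isoforms are already divided in these values.

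Gene tags were rounded and tested in edgeR 4.0.16 under R 4.3.3 by quasi-likelihood, with TMM scaling. Standard errors and intervals come from the same fit. Events of 6 types with at least 20 tags in the smallest margin of junction tags by group were compared with Fisher's exact test on rounded isoform tags summed over replicates, adjusted within type by the Benjamini-Hochberg method. Both tests used p below 0.01 and FDR below 0.1. Gene results were adjusted over all genes tested, and event results over all events tested of the same type. Inclusion is the share of junction tags, averaged over the junctions of an isoform. Wilson intervals and the floor of 3 counts for a share of 0 cover counting error only, and were computed from estimated tags. With 2 embryos per group, p-values rest on the spread between few samples. Scripts were tested on simulated data with known changes.

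For genes, DESeq2 1.42.0, the exact test of edgeR, upper-quartile scaling, filterByExpr and a replicate block were tried as alternatives. For events they were junction tags only, a coverage of 10 or 50, adjustment over all types, the edgeR interaction test, and a Cochran-Mantel-Haenszel test with a replicate block. Isoform tags or the mean of replicates were tried for inclusion, tags for shares, and each sample was left out in turn. The members, gene lists and tests were chosen with earlier results of these data known. Named genes were the members, *Qk*, and from each list the genes called, the 3 with the highest RPKM and the 2 with the largest fold change at a mean of at least 1 RPKM, of which the markers are given in part; the 5 genes most like *Ttyh1* and *Ddah1* were added. Positions are from GENCODE M21 (GRCm38), counted from 1. Sequences were read from its transcripts. Coding sequences were aligned with Biopython 1.88.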

Additional observations from a re-analysis of the deposited data

How the results depend on the processing

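The log2 fold changes of the 5 members kept their sign under all alternatives run, except *Ddah2*, which ranged from -0.18 to 0.014 with a sample left out and was 0.014 without *Qk* cKO replicate 2. *Ttyh1* ranged from -0.47 to -0.38 and *Ddah1* from -0.46 to -0.40, and none of the paralogs was called under any alternative. The number of genes called was 110, and it was 57 with edgeR's exact test, 11 with filterByExpr, 192 with the replicate block, and 0 to 428 with a sample left out (11 without control replicate 1, 0 without control replicate 2, 428 without *Qk* cKO replicate 1 and 68 without replicate 2). For *Ttyh1* and *Ddah1*, which were chosen for their fall, only the ranges of the fold change are given, as a description. With a sample left out, the lone sample of its group is assumed to vary like the others. The cause of these shifts was not tested. The 862 events called became 503 with junction tags only, 64 with the edgeR interaction test, 903 with the replicate block, and 488 to 722 with a sample left out (488 without control replicate 1). The *Ttyh1* alternative 3′ splice site was called under every alternative, with a difference of -0.29 to -0.25 when a sample was left out. It was -0.10 from isoform tags in place of junction tags, since those add the tags on the 485 nt segment to the proximal isoform alone. The share of *Ddah1* in its family changed by -2.52 percentage points, by -4.76 with tags in place of RPKM, as *Ddah2* has a shorter exon length, and by -3.20 to -1.84 with a sample left out. The share of *Ttyh1* changed by -4.04 percentage points, and by -4.57 to -3.52 with a sample left out. Samples that share a replicate number deviated together over genes (r = 0.30) but not over autosomal genes (r = -0.081) or events (r = -0.014). Genes outside the autosomal set thus carried the agreement. With 2 samples per group these values cannot settle whether the numbers pair the samples. The block changed no call of a paralog or of a member event. Depth limits the rare isoforms: 5 of 12 events could not be tested.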
